A study of Mus musculus with 6 samples.

Results

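Expression of 10 cytokine receptor genes was examined in Foxp3-expressing regulatory T (Treg) cells, which restrain immune responses, from pancreas and spleen of NOD mice, a strain that develops autoimmune diabetes spontaneously. The genes Il7r, Il6ra, Il6st, Il27ra, Il4ra, Il21r, Il15ra, Il10ra, Il10rb and Ifngr1 were chosen by name, and all 10 had exactly 1 probe set of their own among the 19752 genes measured. The pancreas group comprised 3 arrays and the spleen group 3 arrays. All mice were prediabetic females, 10 weeks old, labelled NOD NRB_SFB+ and carrying the NOD.Foxp3-ires-gfp allele, in which green fluorescent protein is made from the Foxp3 transcript. Cells of both groups were sorted as DAPI-negative CD45+ TCRb+ CD4+ GFP+ cells and sorted again into TRIzol, with no treatment given in the labels. Whether an array stands for 1 mouse or a pool is not given, so the p-values reflect the spread among these arrays alone, and that spread may be technical.

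Cytokine receptors are membrane complexes, often of a private chain that binds the cytokine and a shared chain, that signal through Janus kinases (JAKs) to STAT transcription factors. Il7r encodes the IL-7 receptor alpha chain, a survival receptor that is typically lower on Treg cells than on conventional CD4 T cells. Il6ra encodes the private IL-6 chain and Il6st the shared chain gp130, which also pairs with the IL-27 chain encoded by Il27ra. IL-4, IL-21, IL-7 and IL-15 receptors use the common gamma chain, IL-10 uses the chains encoded by Il10ra and Il10rb, and interferon gamma (IFN-gamma) uses those encoded by Ifngr1 and Ifngr2. In T cells IL-6 favours helper over regulatory fates, whereas IL-10 and IL-27 can reinforce regulatory function.

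The largest differences between the tissues lay in the IL-6 receptor genes, which were lower in pancreas, but 0 of the 10 receptor genes passed the test (limma, Benjamini-Hochberg adjusted p under 0.05 over all genes), where 0.678% of all genes passed. The lowest levels relative to spleen were those of Il6ra, with a log2 fold change (pancreas minus spleen) of -0.87, Il6st with -0.53 and Il7r with -0.47. The highest was that of Ifngr1, with 0.41. For these 4 of 10 genes the 3 pancreas arrays did not overlap the 3 spleen arrays, 3 genes lower and 1 higher in pancreas. Over all genes 10.4% did not overlap, 5.81% lower and 4.57% higher in pancreas. The same 4 genes had an unadjusted limma p under 0.05, against 6.84% of all genes, and since the genes were chosen with earlier results known these shares carry no test. The median log2 fold change was 0.03 over the 10 genes and -0.00091 over all genes.

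Each of the 10 genes was above the background level, a log2 intensity of 5.99, on all 6 arrays, so that none of these values was limited by dimness. For 8 of the 10 genes the 95% interval of the difference lay within 2-fold in either direction, and for Il6ra and Il6st it reached beyond 2-fold lower. These intervals come from 3 arrays a group, so a smaller difference between the tissues was not detectable here and was not shown to be absent.

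The arrays themselves differed in the width of their intensity distribution, and the part of this width in the receptor values was not tested. The interquartile range was 3.07, 2.72 and 2.23 on the log2 scale on pancreas arrays 1 to 3 and 2.49, 2.80 and 3.00 on spleen arrays 1 to 3. Pancreas array 3, the narrowest, was the lowest pancreas array for 10 of 10 receptor genes, and spleen array 1 the lowest spleen array for 8 of 10. Among the 5047 genes with mean levels in the same range (7.84 to 11.49), the shares were 81.3% and 59.2%. After quantile normalization, which gives all arrays 1 distribution, pancreas array 3 was the lowest for 8 and spleen array 1 for 4 of the 10 genes, against 34.8% and 36.7% of the 5047 genes. Foxp3, which defines the sort, averaged 11.48 ± 0.16 in pancreas and 11.52 ± 0.32 in spleen (log2 intensity, SD, n = 3 each; 95% interval of the difference -0.47 to 0.40), and of 9 genes that mark the sort or T cells in general, 0 passed the test.

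**Figure D1:**
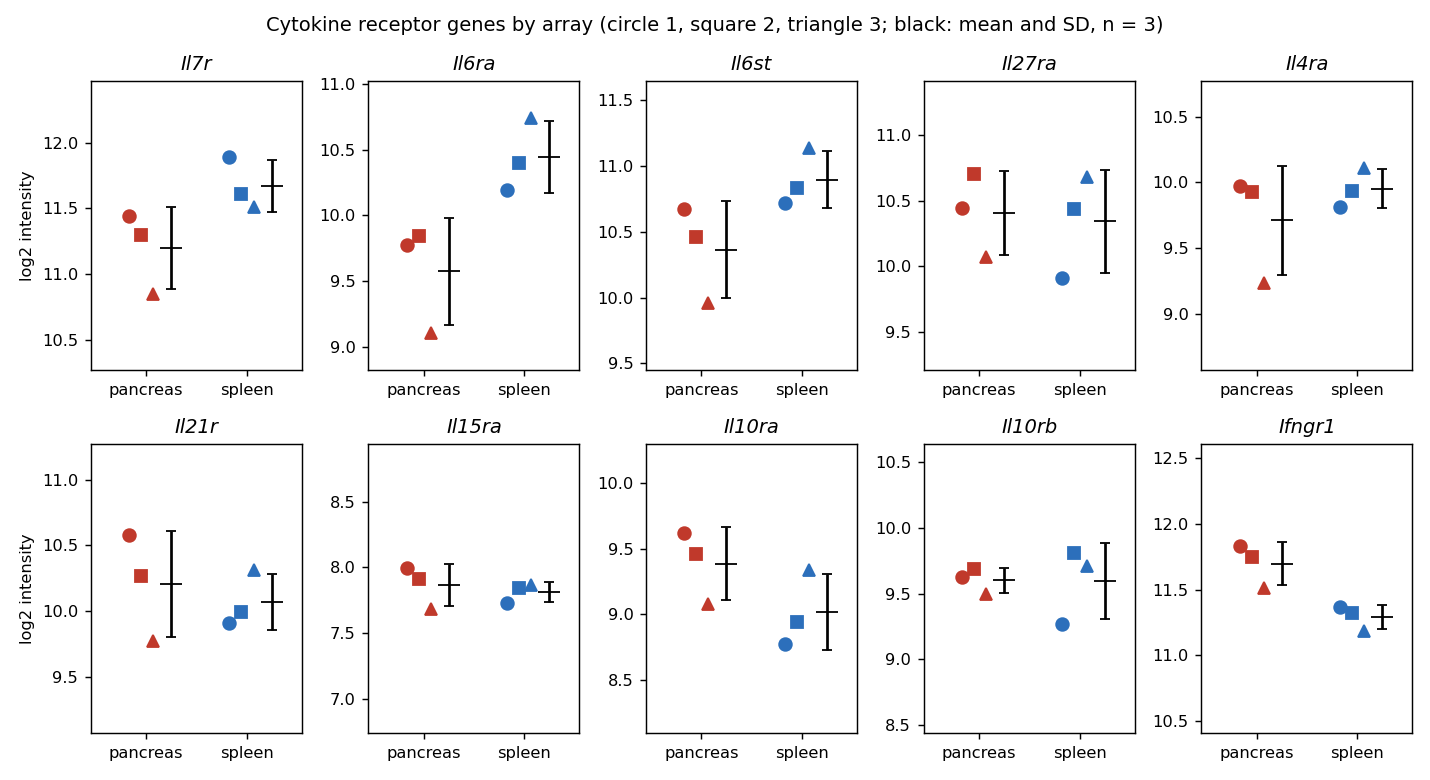
Log2 intensity of each receptor gene on the 3 pancreas (red) and 3 spleen arrays (blue), with circles, squares and triangles for arrays 1, 2 and 3 and the mean with its SD in black. All panels span the same log2 range. The groups do not overlap for Il7r, Il6ra, Il6st and Ifngr1, and the triangle of pancreas array 3 is the lowest red symbol in all 10 panels.

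The IL-6 receptor genes had the largest differences. Il6ra was at 9.78, 9.84 and 9.10 on pancreas arrays 1 to 3, against 10.20, 10.40 and 10.74 on spleen arrays 1 to 3 (log2 intensity). Every pancreas array lay below every spleen array, with a gap of 0.35 between the groups. The means were 9.57 ± 0.41 in pancreas and 10.45 ± 0.28 in spleen (SD, n = 3 each), a log2 fold change of -0.87 ± 0.23 (SE) with a 95% interval of -1.38 to -0.36, or 1.83-fold lower (limma, unadjusted p = 0.00323, adjusted p = 0.178). Il6ra thus did not pass the test over all genes, although its change was larger in size than that of 98.6% of them. With the interquartile range of each array as a covariate, a setting chosen after seeing the data, and with array weights, Il6ra did pass (log2 fold change -0.79 with adjusted p = 0.0153, and -0.66 with adjusted p = 0.0137). In the other 12 alternative fits the adjusted p ran from 0.0579 to 0.605.

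Il6st, the gp130 gene, was at 10.68, 10.46 and 9.96 on the pancreas arrays, against 10.72, 10.83 and 11.14 on the spleen arrays. The groups did not overlap, but only by 0.043 on the log2 scale, the distance between pancreas array 1 and spleen array 1. The log2 fold change was -0.53 ± 0.21 (SE), with a 95% interval of -1.002 to -0.060 (limma adjusted p = 0.608). Without pancreas array 3 it was -0.33. Both chains of the IL-6 receptor were therefore at a lower mean in pancreas, neither past the test, as the plot of receptor chain pairs shows.

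Il27ra, whose protein pairs with gp130 to bind IL-27, was at 10.45, 10.70 and 10.07 on the pancreas arrays, against 9.91, 10.43 and 10.68 on the spleen arrays. The arrays of the tissues interleaved, and the log2 fold change was 0.07 ± 0.23 (SE; 95% interval -0.45 to 0.58; adjusted p = 1.000). Its direction turned when pancreas array 2 or spleen array 1 was left out, with values of -0.084 and -0.15.

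Il7r was at 11.45, 11.30 and 10.85 on the pancreas arrays, against 11.89, 11.61 and 11.51 on the spleen arrays. The groups did not overlap, with a gap of 0.065 between pancreas array 1 and spleen array 3. The means were 11.20 ± 0.31 in pancreas and 11.67 ± 0.20 in spleen (SD, n = 3 each), a log2 fold change of -0.47 ± 0.20 (SE; 95% interval -0.91 to -0.035) that did not pass the test (limma adjusted p = 0.655). Without pancreas array 3 the log2 fold change was -0.30. In bulk samples fewer cells that carry a transcript and less of it per cell cannot be told apart, which holds for each gene here.

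Genes linked to IL-7, STAT5 and the naive state, on a list chosen with earlier results known, also lay mostly lower in pancreas. Of 10 measured, 8 had a lower mean there, 1 fell and 0 rose, with a median log2 fold change of -0.42. Among all 19752 genes 9915 had a lower mean in pancreas, and 0.678% passed the test in either direction. The 1 that fell was Bcl2, a survival gene induced by IL-7, at 9.54, 8.95 and 8.73 in pancreas against 10.15, 10.11 and 10.37 in spleen (log2 fold change -1.14, adjusted p = 0.0482). Its call was lost in the fit with a replicate block (adjusted p = 0.0546), after centring arrays on their medians (0.200) and without pancreas array 2 or spleen array 1, 2 or 3 (adjusted p up to 0.224). Among the others, the lymphoid homing receptor gene Ccr7 (-0.78, adjusted p = 0.123) and the naive T cell transcription factor gene Lef1 (-0.69, adjusted p = 0.116) did not pass. The 2 genes with a higher mean in pancreas were the feedback inhibitor genes Socs2 (log2 fold change 0.42) and Cish (0.14), neither past the test. The lower means thus did not extend to these 2 genes. Conventional CD4 T cells also carry Il7r, and of their 5 measured marker genes 4 had a lower mean in pancreas, with 0 past the test and a median log2 fold change of -0.55. Of these 5 genes 3 had a mean above background, and Il2, the 1 with a higher mean in pancreas, was below background on all arrays. The summed level of the 5 genes was 10.65 to 11.39 in pancreas and 11.56 to 11.70 in spleen (log2 of summed intensities). Satb1 was the brightest of them on every array (mean log2 intensity 10.42 in pancreas and 10.97 in spleen), so the sum rests largely on this gene. The part of conventional CD4 T cells in the Il7r value was not tested.

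**Figure D2:**
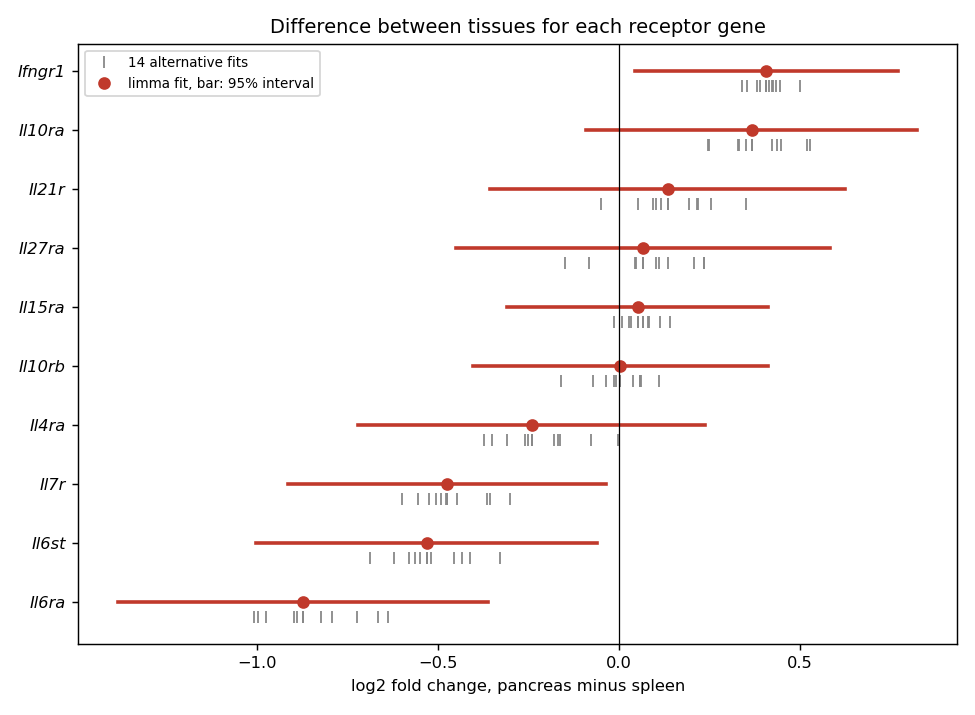
Log2 fold change, pancreas minus spleen, of each receptor gene with its 95% interval (red) and, below each bar, the values of the 14 alternative fits (grey ticks). Il6ra, Il6st, Il7r and Il4ra lie below 0 and Ifngr1 and Il10ra above it in every fit, whereas the ticks of Il21r, Il27ra, Il15ra and Il10rb fall on both sides.

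Ifngr1, which encodes the ligand-binding chain of the IFN-gamma receptor, was the receptor gene with the highest relative level in pancreas. It was at 11.83, 11.75 and 11.51 on the pancreas arrays, against 11.36, 11.32 and 11.19 on the spleen arrays. All pancreas arrays lay above all spleen arrays, with a gap of 0.15, and the spread within each tissue was small (SD 0.17 in pancreas and 0.093 in spleen, n = 3 each). The log2 fold change was 0.41 ± 0.16 (SE; 95% interval 0.044 to 0.77), 1.33-fold, which did not pass the test (limma adjusted p = 0.614) except with array weights (0.43, adjusted p = 0.0317). Its partner Ifngr2, the signal-transducing chain, was at 8.83, 8.78 and 8.21 in pancreas against 9.03, 9.25 and 9.65 in spleen. The groups did not overlap for Ifngr2 either, but with pancreas below spleen (log2 fold change -0.70 ± 0.22 SE, adjusted p = 0.348). The 2 chains of this receptor thus had mean differences of opposite sign, neither past the test.

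The ligand of this receptor was higher in pancreas. Ifng was at 8.19, 7.92 and 7.95 in pancreas against 6.61, 6.98 and 6.54 in spleen (log2 fold change 1.31, adjusted p = 0.00952). On the same arrays 9 of 9 measured B cell markers had a higher mean in pancreas, with a summed level of 9.85 to 10.98 there and 9.39 to 9.63 in spleen, and Cd79a among them rose (log2 fold change 1.86, adjusted p = 0.0482), though not without pancreas array 1 or spleen array 1, 2 or 3 (adjusted p up to 0.142), nor with median centring (0.166) or quantile normalization (0.0821). Of 13 macrophage and dendritic cell markers, Lyz2 rose (1.90, adjusted p = 0.00134), while 9 of 13, Csf1r and Adgre1 among them, were below background on all arrays, and the list's summed level was 9.91 to 9.93 in pancreas and 9.41 to 9.63 in spleen. Acinar enzyme genes of the pancreas were higher too, with 9 of 10 past the test and a summed level of 13.71 to 14.72 in pancreas and 9.94 to 11.32 in spleen. Among all 19752 genes 9837 had a higher mean in pancreas, and 0.678% passed the test in either direction. The part of B cells, macrophages, dendritic cells and acinar cells in the receptor values was not tested.

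Il10ra, the gene of the ligand-binding IL-10 receptor chain, had the next highest relative level in pancreas. It was at 9.62, 9.46 and 9.08 on the pancreas arrays, against 8.77, 8.94 and 9.34 on the spleen arrays. Pancreas array 3 fell below spleen array 3, so the groups overlapped, and the log2 fold change of 0.37 ± 0.21 (SE; 95% interval -0.090 to 0.82) did not pass the test (limma adjusted p = 0.937). After quantile normalization the values were 9.49, 9.42 and 9.34 in pancreas against 8.87, 8.89 and 9.23 in spleen, which no longer overlapped (0.42, adjusted p = 0.277). Il10rb, the accessory chain gene, was at 9.62, 9.68 and 9.50 in pancreas against 9.27, 9.81 and 9.71 in spleen. The pancreas values fell inside the range of the spleen values, and the log2 fold change was 0.0043 ± 0.18 (SE; 95% interval -0.40 to 0.41). Its cytokine, Il10, was at 9.16, 9.17 and 8.88 in pancreas and not above background on any spleen array, a difference of at least 8.48-fold (adjusted p = 7.72e-05).

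**Figure D3:**
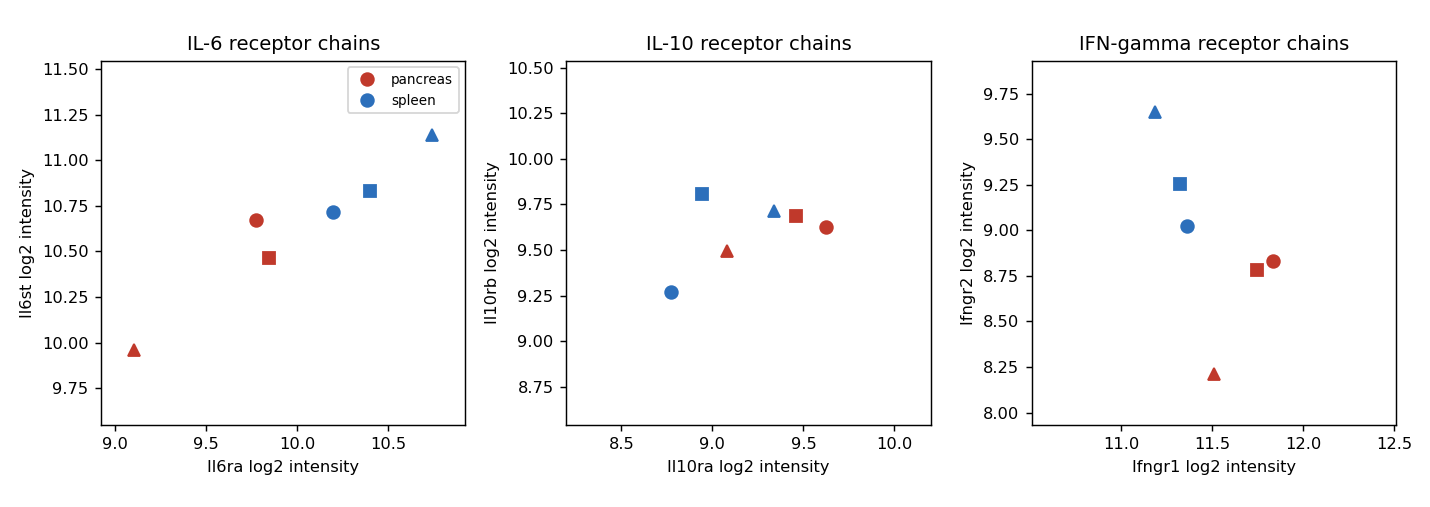
Log2 intensity of paired receptor chains on each array, with pancreas in red and spleen in blue and circles, squares and triangles for arrays 1, 2 and 3. Pancreas arrays lie lower on both axes for Il6ra and Il6st, and higher for Ifngr1 but lower for Ifngr2, while Il10ra and Il10rb overlap between the tissues.

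Il4ra, Il21r and Il15ra, whose proteins work with the common gamma chain, overlapped between the tissues. The Il4ra protein binds IL-4 and, with the Il13ra1 chain, IL-13, and the gene was at 9.97, 9.93 and 9.23 in pancreas against 9.81, 9.93 and 10.11 in spleen. Pancreas arrays 1 and 2 lay within the range of the spleen arrays and pancreas array 3 below it, and the log2 fold change was -0.24 ± 0.22 (SE; 95% interval -0.72 to 0.24), or -0.0023 without that array. Il21r, the IL-21 receptor gene, which neighbours Il4ra in the RefSeq gene table of GRCm38.p6, was at 10.58, 10.27 and 9.77 in pancreas against 9.91, 9.99 and 10.31 in spleen. Its log2 fold change was 0.13 ± 0.22 (SE; 95% interval -0.36 to 0.62) and turned to -0.051 without pancreas array 1. Il15ra, which encodes the chain that presents IL-15 to neighbouring cells, was at 8.00, 7.91 and 7.69 in pancreas against 7.73, 7.85 and 7.87 in spleen. Its log2 fold change was 0.05 ± 0.16 (SE; 95% interval -0.31 to 0.41), and after quantile normalization its pancreas values of 7.83, 7.88 and 7.98 lay above its spleen values of 7.83, 7.80 and 7.73, though by less than 0.01 at the nearest (0.11, adjusted p = 0.889). The adjusted p of all 3 genes was 1.000 in the fit as reported.

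The partner chains and the signalling machinery showed no called change. Of 14 measured partner and related receptor chains 0 rose and 0 fell, with log2 fold changes from -0.70 (Ifngr2) to 0.65 (Il13ra1). Il13ra1 was above background on the 3 pancreas arrays and on no spleen array, a difference of at least 1.14-fold that did not pass (adjusted p = 0.299). Il2ra, which encodes the alpha chain of the IL-2 receptor, was at 11.65, 11.91 and 11.88 in pancreas against 12.06, 12.26 and 12.09 in spleen, which did not overlap (log2 fold change -0.32, adjusted p = 0.842). Of 9 measured JAK and STAT genes 0 passed, and their log2 fold changes lay between -0.28 and 0.12. Jak1, the kinase shared by these receptors, was at 11.61, 11.26 and 11.24 in pancreas against 11.67, 11.63 and 11.65 in spleen (-0.28, adjusted p = 0.988), and Il2rg and Jak3 were not analysed here. Of 13 feedback inhibitor genes (SOCS, PIAS and phosphatase genes) 0 passed, with a range of -0.34 to 0.42.

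Genes listed as STAT3 or STAT6 targets, on lists chosen with earlier results known, included called members. Over all genes 0.678% passed the test and 9837 of 19752 had a higher mean in pancreas. STAT activity itself was not tested. Of 11 STAT3 target genes 2 rose and 0 fell, with a median log2 fold change of 0.75, and 10 of the 11 had a higher mean in pancreas, the exception being Il6st itself. The 2 were Il10 and Prdm1, which encodes Blimp-1, a transcriptional repressor that promotes effector and plasma cell differentiation, at 9.50 ± 0.32 in pancreas and 8.29 ± 0.15 in spleen (SD, n = 3 each; log2 fold change 1.21, adjusted p = 0.0215). The call of Prdm1 held without pancreas array 3 but was lost when any of the other 5 arrays was left out (adjusted p up to 0.118) and with median centring (0.114). Stat3 itself was at 10.41 ± 0.27 in pancreas and 10.33 ± 0.23 in spleen, and Socs3, the feedback inhibitor that binds gp130, had a log2 fold change of 0.32 (adjusted p = 1.000). Of 7 STAT6 target genes 1 rose, Ccr8, a chemokine receptor gene of tissue Treg cells (1.84, adjusted p = 0.00362), while Gata3 was at -0.08 (adjusted p = 1.000). The calls of Il10, Ifng, Ccr8 and Lyz2 held in all 14 alternative fits. Of 15 measured ligand genes 2 rose, Il10 and Ifng, and 8 were below background on all arrays, Il6, Il7, Il15, Il21 and Il4 among them.

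**Figure D4:**
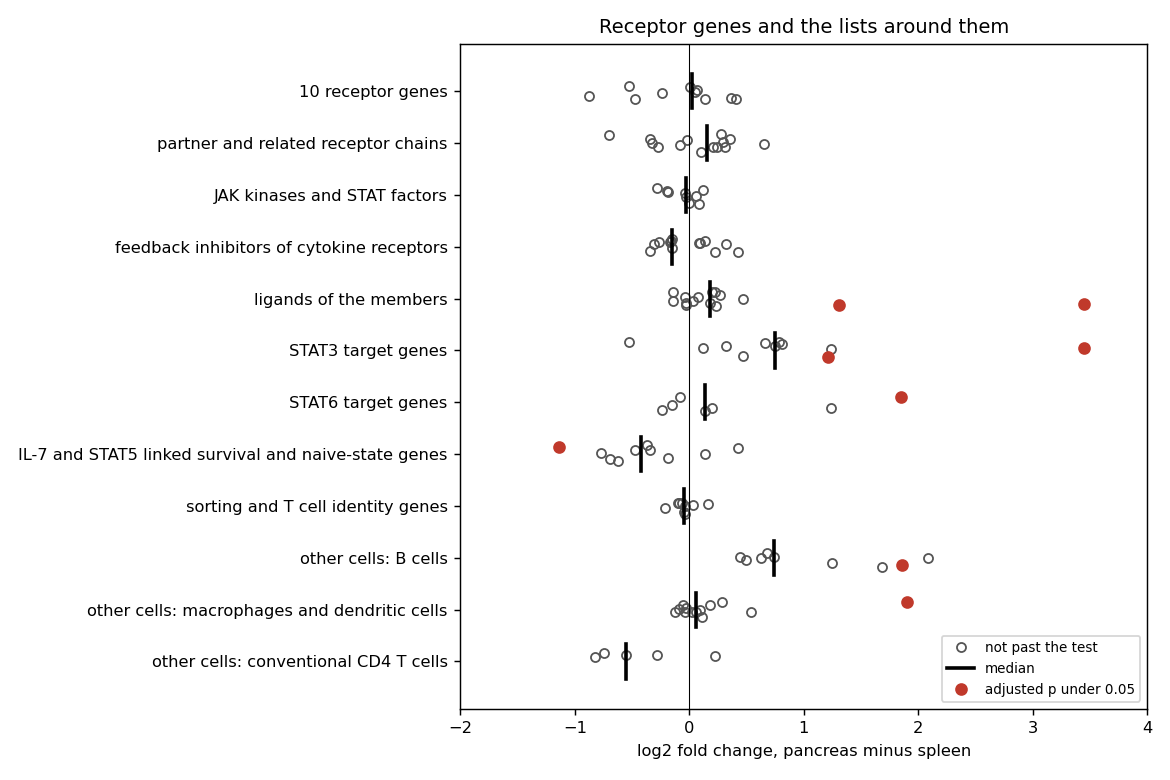
Log2 fold changes, pancreas minus spleen, of the 10 receptor genes and of the genes on each list around them, with filled red circles for an adjusted p under 0.05, open circles otherwise and a black bar at the median. No receptor, partner chain, JAK or STAT gene is filled, whereas 2 ligand genes (Il10 and Ifng) and 2 STAT3 targets are.

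The genes whose 6 values were most like those of a receptor gene were sought among 11242 genes above background by the root mean square difference over the 6 arrays, each gene centred on its mean. Closest to Il6ra was Ifngr2, with a difference of 0.10 on the log2 scale, followed by Kctd2 (0.12) and Sp6 (0.13). Closest to Il6st were Dmac1 (0.035), Zfp748 (0.051) and Tpcn1 (0.055), and closest to Il7r were Dop1a (0.071), Ccnj (0.075) and Slc30a7 (0.077). Closest to Ifngr1 were Slc15a3 (0.049), Il18r1 (0.054), which encodes an IL-18 receptor chain, and Adam9 (0.055). None of these 12 genes passed the test, with adjusted p from 0.0845 to 0.874.

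The promoters of the 4 receptor genes whose groups did not overlap are shown, since these genes carry the differences described. Each is the 250 bases before the RefSeq start site in GRCm38.p6, and capitals mark matches on either strand to a STAT element (TTCNNNGAA) or an ETS element (CNGGAAGT), the site of factors such as GABP that act on Il7r.
Il7r (chr15:9529877-9530126, minus strand): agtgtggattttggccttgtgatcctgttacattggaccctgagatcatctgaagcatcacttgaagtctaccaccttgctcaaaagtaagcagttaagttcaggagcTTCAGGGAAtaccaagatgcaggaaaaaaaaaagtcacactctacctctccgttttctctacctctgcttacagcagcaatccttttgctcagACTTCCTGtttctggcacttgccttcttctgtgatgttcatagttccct
Il6ra (chr3:89913197-89913446, minus strand): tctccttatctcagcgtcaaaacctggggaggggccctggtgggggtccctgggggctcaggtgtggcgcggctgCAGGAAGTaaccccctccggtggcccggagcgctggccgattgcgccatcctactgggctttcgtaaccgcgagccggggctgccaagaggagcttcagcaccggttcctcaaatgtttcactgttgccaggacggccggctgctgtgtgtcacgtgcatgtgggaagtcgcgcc
Il6st (chr13:112463820-112464069, plus strand): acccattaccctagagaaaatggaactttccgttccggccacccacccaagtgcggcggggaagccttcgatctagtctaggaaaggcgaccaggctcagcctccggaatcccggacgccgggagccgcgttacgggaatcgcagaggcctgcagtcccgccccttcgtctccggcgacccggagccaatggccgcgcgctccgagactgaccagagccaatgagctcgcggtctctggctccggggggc
Ifngr1 (chr10:19591699-19591948, plus strand): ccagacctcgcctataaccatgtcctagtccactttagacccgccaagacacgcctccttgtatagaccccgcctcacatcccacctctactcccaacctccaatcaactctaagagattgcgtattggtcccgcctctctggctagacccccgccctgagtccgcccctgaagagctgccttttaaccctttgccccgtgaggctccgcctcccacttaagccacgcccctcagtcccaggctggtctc
The Il7r window held 1 STAT element beginning 142 bases and 1 ETS element beginning 49 bases before the start site, and the Il6ra window 1 ETS element beginning 175 bases before it. The letters of neither element were in the Il6st and Ifngr1 windows. Over 32851 promoter windows of this length, 7.02% held the STAT element and 7.58% the ETS element. A forkhead element (TGTTTAC), held by 3.17% of the windows, was in none of these 4 but began 38 bases before the start of Il21r. Il7r had 44.0% G and C and 1 CpG, against 65.2% and 18 CpGs in Il6ra, 66.0% and 26 in Il6st and 59.2% and 11 in Ifngr1, with medians of 52.4% and 6 over all windows. A match is a description of letters, and binding was not measured.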

How the data were processed

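Total RNA of sorted Treg cells was amplified (Ambion WT Expression Kit) and measured on Affymetrix Mouse Gene 1.0 ST arrays, per the labels. The authors deposited a linear intensity per probe set. The submitters' processing notes name RMA and Affymetrix Power Tools, with versions not given in the sources used here. RMA corrects background, normalises and summarises probes, but the deposited columns did not share 1 distribution (medians 82.0 to 92.0). The log2 of each value was used as it stood, without pseudocount or filter.

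Of 24922 probe sets, 21425 name exactly 1 gene in the platform annotation and were used, and a gene with several was taken from the probe set whose 6 arrays averaged highest, which left 19752 genes. Background was the 95th percentile of the mean log2 value over 1190 olfactory and vomeronasal receptor genes, an intensity of 63.4. Where a gene was above it on no spleen array, the fold is a lower bound, the pancreas mean against this level. Groups came from the titles. All genes were fitted with limma 3.58.1 (R 4.3.3; lmFit, eBayes, 6 arrays, no covariates, two-sided, Benjamini-Hochberg over all genes, threshold 0.05), a script tested on simulated data, and figures drawn with matplotlib 3.10.9. The number of arrays limits the precision.

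The members, the 14 gene lists and the tests were chosen with earlier results of these data known. One list is not reported here. Named were the 10 receptor genes, up to 4 called members of each list, Il2rg, Jak1, Jak3 and Foxp3, and, for each receptor gene whose groups did not overlap, the 3 genes most like it. Others were named after their values were seen. The replicate numbers in the titles were not taken to pair the samples in the main fit. Of 12 acinar markers, 10 were measured and 9 rose, where 0.678% of all genes passed the test. Of 10 measured CD8 T and NK cell markers, 1 (Klrd1, below background on all arrays) rose, and the list's summed level was 10.28 to 10.74 in pancreas and 9.98 to 10.36 in spleen. The call of Klrd1 held in 7 of 13 alternative fits and was lost with median centring (adjusted p = 0.0989), with the replicate block (0.0811) and without pancreas array 1 or 2 or spleen array 2 or 3 (up to 0.218). Promoter sequences are from RefSeq (GRCm38.p6), in which 7 of the 10 receptor genes were matched by symbol. Alternatives covered normalization, dim genes, probe sets, variance model, array weights, array width, the replicate block and each array left out.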

Additional observations from a re-analysis of the deposited data

How the results depend on the processing

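Of 140 values (10 receptor genes in 14 alternative fits), 128 kept their direction and their side of the threshold, 3 passed the test (Il6ra with array weights and with the interquartile range of each array as a covariate, Ifngr1 with array weights) and 9 turned in direction. The count of receptor genes past the test was thus 2 with array weights and 1 with that covariate, a setting chosen after seeing the data, against 0 in the fit as reported and in each fit with 1 array left out. The count over all genes was 1671 with array weights, 538 with the covariate, 212 after quantile normalization and 38 with each array centred on its median, against 134 as reported, and ran from 64 to 262 with 1 array left out. The array weights, estimated gene by gene since the default estimate did not converge, ran from 0.336 for pancreas array 3 to 4.01 for spleen array 2, so that fit rests mainly on 1 array per tissue. The 4 genes whose direction turned had reported log2 fold changes between 0.0043 and 0.13. With 1 array left out, Il10rb ran from -0.16 to 0.11, Il27ra from -0.15 to 0.23, Il21r from -0.051 to 0.35 and Il15ra from -0.014 to 0.14, and Il10rb was at -0.070 with array weights and -0.013 with median centring. The cause was not tested. With the replicate number as a block, 0 receptor genes passed and 132 genes did in all, with Il6ra at an adjusted p of 0.312, and it changed no call of a receptor gene. Deviations of same-numbered arrays correlated across genes at -0.46, 0.11 and -0.68. The narrowest array of each tissue, pancreas array 3 and spleen array 1, correlated at 0.65. With array width differing among the arrays, these values cannot show whether the numbers pair the samples. Signal over background limited none of the 10 receptor genes. Groups of 3 arrays were not screened for outlying samples.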
